A study of Homo sapiens with 6 samples.

Results

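Accessible chromatin was described at 10 genes of the interferon system in GM12878, a human lymphoblastoid line of B cells transformed with Epstein-Barr virus. The genes were the interferon regulatory factors IRF1, IRF2, IRF3, IRF5, IRF7 and IRF9 and the interferon-stimulated genes ISG15, MX1, OAS1 and IFI44L, which are 10 of 19807 annotated protein-coding genes. Every ATAC-seq peak within the gene body or 10 kb on either side was taken, and peaks of the 6 libraries that overlapped were merged into 1 region. This gave 43 of 56447 regions. A region was a promoter region if it reached within 1 kb of a start of a protein-coding transcript, and it was distal otherwise.

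All cells were fixed with 1% PFA and received no antibody, and all were reverse crosslinked at 65 °C overnight after transposition. The protocols differed by label in how the transposed DNA was released. The methods give another detergent level for lysis, quenching with EDTA and removal of the supernatant only for the bulk Pi-ATAC workflow, while the labels give them for all 6 libraries, so a difference in these steps cannot be told apart from the buffer. The old reverse crosslinking buffer contained SDS and was followed by DNA purification. The new buffer lacked SDS, and PCR was set up either after DNA purification (purified new buffer) or straight in the mixture (unpurified new buffer). Each of the 3 protocols had 2 libraries, and no label says that the 2 came from separate cultures, so p-values measure a spread between libraries that may be technical. No sample was treated with interferon by its label, and a single line gives no spread between donors.

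Interferons are secreted when cells sense foreign nucleic acid. Type I interferons act through the kinases JAK1 and TYK2 on STAT proteins, which join IRF9 to form the complex ISGF3, and this complex binds the interferon-stimulated response element of genes such as ISG15, MX1 and OAS1. IRF3 and IRF7 drive the interferon genes themselves, IRF5 acts in signalling from Toll-like receptors, IRF1 is a transcriptional activator of many interferon-γ targets, and IRF2 binds the same elements as IRF1 and is best known as its antagonist.

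The bases before the canonical start are shown first for the genes with a response element core in a promoter region of all libraries (IRF1, IRF2 and IRF7) and for those with a promoter region missing from at least 1 library. They are read 5′ to 3′ on the gene's strand of hg19, up to 200 bases long and end at the base before the start. In IRF3 they stop at an exon of the neighbouring BCL2L12, in IRF5 they lie outside every called region, and in most of the genes other transcripts start inside them. Capitals mark matches on either strand to 3 motifs: the response element core (GAAA, any 2 bases, GAAA), a composite element of an ETS factor and an IRF (GGAA, any 2 bases, GAAA) and a site for a STAT dimer (TTC, any 3 bases, GAA). Matches to the first 2 can overlap. The coordinates follow the sequences.
ISG15: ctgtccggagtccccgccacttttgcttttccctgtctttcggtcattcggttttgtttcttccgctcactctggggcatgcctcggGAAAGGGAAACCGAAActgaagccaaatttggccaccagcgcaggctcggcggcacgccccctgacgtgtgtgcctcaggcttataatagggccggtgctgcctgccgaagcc
MX1: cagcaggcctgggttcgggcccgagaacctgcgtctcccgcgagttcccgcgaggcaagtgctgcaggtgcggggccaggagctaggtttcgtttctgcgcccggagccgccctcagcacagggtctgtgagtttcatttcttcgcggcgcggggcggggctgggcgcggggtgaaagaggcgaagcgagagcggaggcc
OAS1: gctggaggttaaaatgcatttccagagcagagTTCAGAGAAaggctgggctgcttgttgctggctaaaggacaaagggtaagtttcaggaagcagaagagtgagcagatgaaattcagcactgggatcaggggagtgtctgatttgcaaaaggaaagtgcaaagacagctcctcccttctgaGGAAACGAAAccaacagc
IFI44L: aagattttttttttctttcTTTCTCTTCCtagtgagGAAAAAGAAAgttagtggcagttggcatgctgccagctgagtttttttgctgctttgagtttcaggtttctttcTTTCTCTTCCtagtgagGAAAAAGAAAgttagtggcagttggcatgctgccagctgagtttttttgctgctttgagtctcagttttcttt
IRF1: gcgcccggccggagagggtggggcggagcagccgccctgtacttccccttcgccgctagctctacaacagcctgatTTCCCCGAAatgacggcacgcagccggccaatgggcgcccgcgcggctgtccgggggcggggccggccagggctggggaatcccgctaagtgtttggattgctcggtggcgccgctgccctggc
IRF2: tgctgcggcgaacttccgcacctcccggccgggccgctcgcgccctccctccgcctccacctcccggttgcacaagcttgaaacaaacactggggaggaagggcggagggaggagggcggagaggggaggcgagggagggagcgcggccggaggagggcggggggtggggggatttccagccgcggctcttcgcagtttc
IRF3: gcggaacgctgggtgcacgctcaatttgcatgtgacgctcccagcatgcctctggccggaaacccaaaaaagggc
IRF5: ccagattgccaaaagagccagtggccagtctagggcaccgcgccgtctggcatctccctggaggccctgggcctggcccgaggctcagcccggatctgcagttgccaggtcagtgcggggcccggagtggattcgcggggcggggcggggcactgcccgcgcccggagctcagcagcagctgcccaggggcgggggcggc
IRF7: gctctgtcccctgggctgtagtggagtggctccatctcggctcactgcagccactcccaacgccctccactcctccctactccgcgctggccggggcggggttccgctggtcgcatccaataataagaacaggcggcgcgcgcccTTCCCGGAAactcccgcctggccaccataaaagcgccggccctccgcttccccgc

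These bases lie at chr1:948677-948876 (plus strand) for ISG15, chr21:42797966-42798165 (plus) for MX1, chr12:113344567-113344766 (plus) for OAS1 and chr1:79085933-79086132 (plus) for IFI44L. For the regulatory factors they lie at chr5:131826466-131826665 (minus) for IRF1, chr4:185395705-185395904 (minus) for IRF2, chr19:50169115-50169189 (minus) for IRF3, chr7:128577781-128577980 (plus) for IRF5 and chr11:615951-616150 (minus) for IRF7. The ISG15 stretch holds 2 overlapping response element cores, the OAS1 stretch a match to the composite element close to the start, and the MX1 stretch no match to the 3 motifs. No match says only that these letters are not in this window. The OAS1 match also contains GAAACGAAA. The MX1 stretch holds tttcgtttc and tttcatttc, which read GAAACGAAA and GAAATGAAA on the other strand. In these the GAAA units lie closer together than the 2 bases of the core, so they were not counted. Whether they act as response elements was not tested. In IFI44L a stretch of 85 bases occurs at 2 places 91 bases apart, each copy with a response element core and a composite element, whereas the longest repeat in any of the other stretches was 12 bases.

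For the regulatory factors the response element cores lay elsewhere in the promoter regions. The following matches, each with up to 10 bases on either side, are shown because they place these elements in regions that were called. They come from the IRF1 alternative promoter, the IRF2 promoter, an internal start of IRF2, the IRF7 promoter and the promoters of the neighbours OAS3 and IFI44, in that order.
IRF1 alternative promoter, chr5:131832707-131832736, minus: gcgtttgcaaGAAACCGAAAcccaggctcc
IRF2 promoter, chr4:185395589-185395618, plus: tagggtatgtGAAATGGAAAtgaaagcccg
IRF2 internal start, chr4:185370204-185370233, plus: actgagaacaGAAACCGAAAccaggggtga
IRF7 promoter, chr11:615684-615713, plus: aggctcccggGAAAGCGAAAcctaaacagt
OAS3 promoter, chr12:113376126-113376155, plus: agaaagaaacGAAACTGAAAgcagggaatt
IFI44 promoter, chr1:79115446-79115475, minus: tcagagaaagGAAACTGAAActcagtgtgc

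Of the 43 regions, 13 were called in all 6 libraries, which is 30.2% of them against 35.5% of all 56447 regions, and 12 were called in 1 library, which is 27.9% against 27.4%. The other 18 were called in 2 to 5 libraries. There were 15 promoter regions of the 10 genes, of which 6 were called in all libraries against 64.2% of all promoter regions. Of 24 distal regions, 4 were called in all libraries against 27% of all regions outside promoters. The last 4 regions were promoters of neighbouring genes (REC8, AGRN, OAS3 and IFI44), and 3 of these were called in all libraries. Of the 24 distal regions, 9 lay in an intron of the canonical transcript, 5 upstream of it and 10 downstream.

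The 10 windows held 3.8 to 13.8 regions per 100 kb, with a median over all protein-coding genes of 2.84 and quartiles of 0.983 and 4.88. IRF2 had the highest density, with 15 regions in 109 kb, followed by IFI44L, with 6 regions in 46.2 kb. IRF3 had the lowest, with 1 region in 26.3 kb, and only IRF3, OAS1 and IRF7 lay below the upper quartile of all genes.

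**Figure D1:**
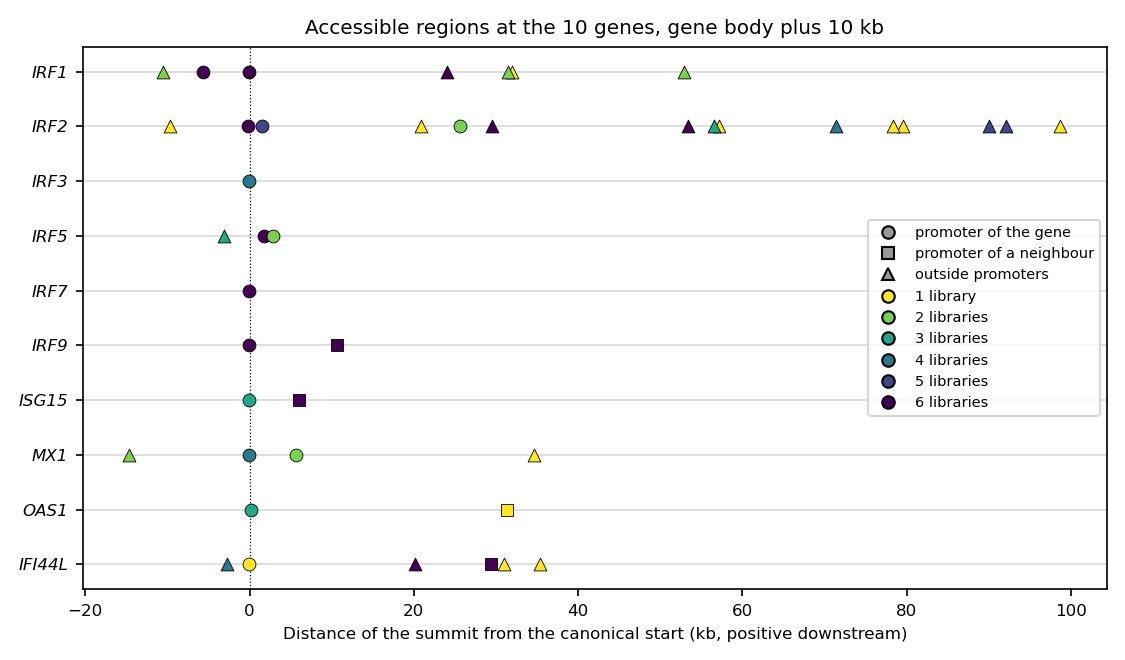
Positions of the 43 regions at the 10 genes, as the distance of the median summit from the canonical start in kb, with positive values downstream. Colour gives the number of libraries that called the region, and the marker gives its class. Dark markers near 0 are seen for IRF1, IRF2, IRF7 and IRF9, and lighter ones for IRF3 and the 4 stimulated genes. The dark marker of IRF5 lies 1758 bp downstream, and no region covers its canonical start.

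The lists give no read totals, but the number of reads at each summit could be solved from the deposited fold enrichment and p value. Summit reads had a median of 20 to 22 in each library, and the smallest called peaks held 8 or 9. The lowest local background, which scales with depth, was 1.51 to 1.86 reads. Over all regions the median of the summit reads grew with the number of libraries that called a region, from 13 reads for 1 library to 29 reads for 6. A region that a library did not call was not detected in it, which does not show the region to be closed. The cause of a missing call was not tested. Peaks were also ranked within their library by −log10 q, and a rank is given as a percent of the library's peaks, with low values for strong peaks.

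The B cell label was checked with promoters of marker genes. All 5 of MS4A1, CD79A, CD79B, PAX5 and CD22 had a promoter region in at least 1 library, CD79B and PAX5 in only 1. Only MS4A1, which encodes CD20, had one in all 6, with 39 to 52 summit reads. This is 20% of the 5 markers against 45.5% of all protein-coding genes. The promoters of CD3D and CD3E of T cells, GATA1 and HBB of erythroid cells and MPO and LYZ of myeloid cells were called in 0 of 6 libraries. Of all protein-coding genes, 39.3% had no promoter region in any library.

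The number of libraries that called a promoter was counted for each gene. Of the 6 regulatory factors, 5 had a promoter region in all libraries (IRF1, IRF2, IRF5, IRF7 and IRF9), and IRF3 had one in 4. These 5 became 4 at a −log10 q of at least 5 or with equal numbers of peaks, which left IRF5 in 4 libraries, and 2 where a call needed 50% of the region, which left IRF5 and IRF7 in 4 and IRF9 in 5. Of the 4 stimulated genes, 0 had a promoter region in all libraries, and MX1 had one in 4, ISG15 and OAS1 in 3, and IFI44L in 1. Over all protein-coding genes, 45.5% had a promoter region in all libraries, 15.1% in some and 39.3% in none. No test was made of the difference between the 2 sets, since the genes were chosen by name.

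Below, the 6 values of a region are given in the order old, purified new and unpurified new buffer, with replicates 1 and 2 of each. The strongest promoters of the 10 genes were those of IRF2 and IRF1. At the IRF2 promoter (chr4:185395425-185396417, across the canonical start) the summit reads were 75, 59, 65, 57, 64 and 66. The peak ranked 1298 to 3985, within the top 12% of every library, and the summits of the 6 libraries lay within 56 bp of each other. At the canonical IRF1 promoter (chr5:131825949-131826951) the summit reads were 50, 43, 56, 46, 55 and 53. It ranked 3123 to 5260, within the top 14% of every library, and the summits lay within 95 bp. Old buffer replicate 1 had the highest value at IRF2, with a −log10 q of 40 against 23.5 to 29 in the other libraries, and at IRF1 the libraries lay closer together, at 21.2 to 31.1.

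IRF1 had another promoter region in all 6 libraries, at the start of other transcripts 5666 bp upstream of the canonical start (chr5:131831351-131832755). Its summit reads were 38, 25, 37, 24, 41 and 33. These were lower than at the canonical promoter in each library, and replicate 2 was below replicate 1 in each protocol. Over all regions, libraries of the same number did not deviate together, by the correlations given with the processing. Whether they share an effect at this region was not tested. The response element core shown above lay 6257 bp upstream of the canonical start, 591 bp from the median summit, and 2 STAT dimer sites lay closer to it.

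Of the 5 distal IRF1 regions, the one with the best ranks was in all 6 libraries, 24046 bp downstream of the canonical start (chr5:131801990-131803003), with 28, 26, 30, 23, 26 and 33 summit reads. The other 4 distal regions were called in 1 or 2 libraries each with 12 to 19 summit reads. The annotated IRF1 gene body (chr5:131776132-131844411) is long because of transcripts that run far past the canonical one, and the canonical transcript ends before all 4 of the downstream regions.

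IRF2 had 2 more promoter regions, at starts of other transcripts inside introns of the canonical one. The region 1457 bp downstream of the canonical start (chr4:185393808-185394500) was called in 5 libraries, with 35 summit reads in old buffer replicate 2, 39 and 44 in the purified and 38 and 33 in the unpurified new buffer libraries. Old buffer replicate 1, which had the most reads at the main IRF2 promoter, did not call it. The region 25565 bp downstream (chr4:185369956-185370334) was called in old buffer replicate 1 with 17 summit reads and in purified new buffer replicate 1 with 18, and it holds 2 of the response element cores.

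The 12 distal regions of IRF2 lay up to 98711 bp from its start. The intronic region 53406 bp downstream (chr4:185342061-185342574) had the best ranks, with 38, 29, 43, 28, 39 and 27 summit reads in the 6 libraries. A weaker intronic region 29510 bp downstream (chr4:185365907-185366489) was also called in all of them, with 16, 14, 15, 16, 23 and 18 reads. The other 10 distal regions were called in 1 to 5 libraries with 12 to 30 summit reads, 6 of them in 1 library. The IRF2 window thus held regions over nearly the whole range of ranks, from 3.45% for the promoter to 96% for the weakest distal region.

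IRF9, the DNA-binding subunit of ISGF3, had the next best ranks among the canonical promoters. Its region (chr14:24629931-24631037) had 37, 28, 34, 28, 37 and 26 summit reads and ranked at 17.3% to 38.7% of the peaks. The 2 unpurified libraries spanned the whole range of reads. The region holds 3 STAT dimer sites, at 382 and 59 bp upstream and 297 bp downstream of the start. The window also takes in the promoter of REC8, a meiotic cohesin gene 10602 bp downstream (chr14:24640741-24641476), which was called in all libraries with 19, 22, 28, 15, 35 and 22 reads.

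IRF7, often called the master regulator of type I interferon, had 1 region (chr11:615463-616253). It held 20, 20, 26, 26, 29 and 26 summit reads and ranked at 33.1% to 62.2%. Both old buffer libraries were below the other 4. The response element core lay 251 bp downstream of the start, and a STAT dimer site 51 bp upstream.

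IRF5 showed how reads and rank can part. The region 1758 bp downstream of its canonical start (chr7:128578946-128580269) was called in all 6 libraries with 23, 24, 34, 29, 35 and 30 summit reads, and both old buffer libraries again had the fewest. Yet it ranked at 49.5% to 94% of the peaks, with a fold enrichment of 3.12 to 4.09, against 4.75 to 6.59 at IRF7 with similar or fewer reads. The summits of the libraries were spread over 1011 bp, more than at any other region of the 10 genes.

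Beside it, a promoter region 2802 bp downstream (chr7:128580633-128580839) was called in old buffer replicate 2 with 18 reads and in unpurified new buffer replicate 2 with 25, and it holds a composite element. A distal region 3096 bp upstream (chr7:128574624-128575155) was called in both old buffer libraries with 20 and 25 reads and in unpurified new buffer replicate 2 with 31. It holds 2 STAT dimer sites and a composite element.

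IRF3, which is activated by phosphorylation in cells that sense viral nucleic acid, had the promoter called in the fewest libraries among the regulatory factors. Its only region (chr19:50168980-50169371) had 16 and 17 summit reads in the old buffer libraries, 16 in purified new buffer replicate 2 and 26 in unpurified new buffer replicate 2. The new buffer libraries numbered 1 did not call it. The region is also the promoter of BCL2L12, which is transcribed in the opposite direction, and the reads cannot be divided between them.

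**Figure D2:**
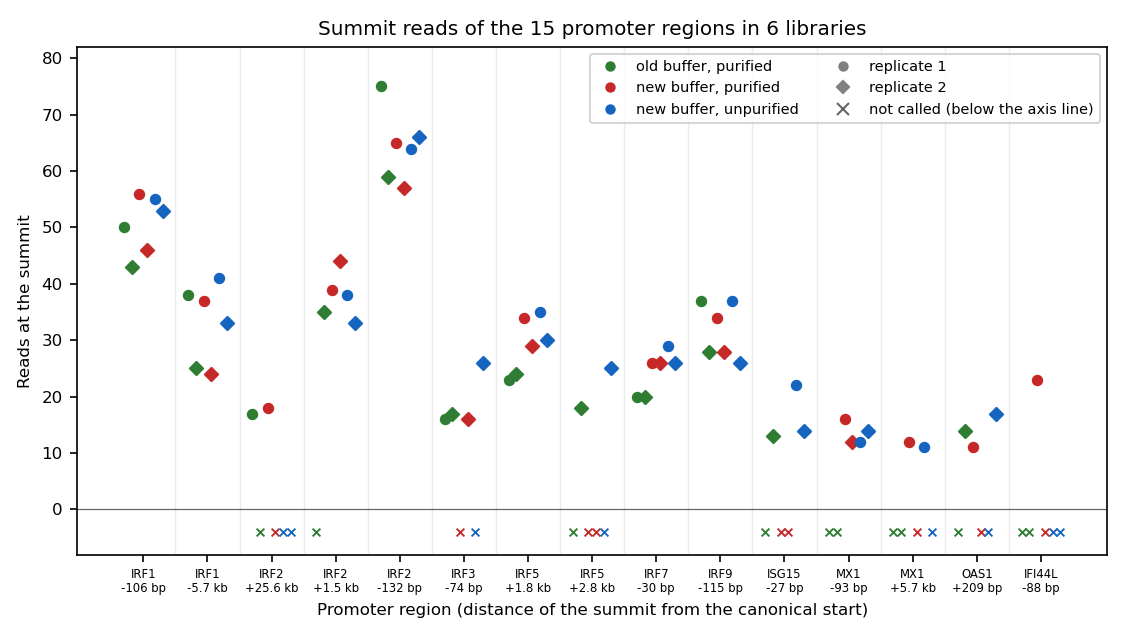
Reads at the summit of the 15 promoter regions of the 10 genes, with 1 point per library. Colour gives the protocol and shape the replicate, and crosses under the line mark libraries that did not call the region, for which no read number is known. The canonical IRF1 and IRF2 promoters hold 43 to 75 reads, and the 5 regions of the stimulated genes hold 11 to 23 where they were called.

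The promoters of the 4 stimulated genes held 11 to 23 summit reads where they were called, and ISG15 in 1 library and IFI44L reached the median of a library. ISG15 encodes a ubiquitin-like protein that is conjugated to other proteins. Its promoter region (chr1:948651-949050) was called in old buffer replicate 2 with 13 summit reads and in both unpurified new buffer libraries with 22 and 14. The summits of the 3 libraries lay within 50 bp, at a median of 27 bp upstream of the start, and the 2 response element cores lay 108 and 102 bp upstream. Its rank was 41% in the library with 22 reads and 79.1% and 79.7% in the others. In the same window the promoter of AGRN, which encodes the matrix proteoglycan agrin, was called in all libraries with 26, 37, 39, 27, 35 and 32 reads (chr1:954616-955564).

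MX1 encodes a dynamin-like GTPase that blocks viruses such as influenza. The region at its canonical start (chr21:42797868-42798373) was called in all 4 new buffer libraries, with 16 and 12 summit reads with purification and 12 and 14 without, and in neither old buffer library. These peaks ranked at 70.5% to 97.3%. A second promoter region 5704 bp downstream (chr21:42803782-42804056) was called in replicate 1 of both new buffer protocols with 12 and 11 reads. The same 2 libraries called a distal region 14648 bp upstream (chr21:42783398-42783744) with 12 reads each, which holds 2 response element cores, and 1 library called a region 34612 bp downstream (chr21:42832682-42832881) with 13.

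OAS1 encodes a synthetase of 2′-5′ oligoadenylate, which activates RNase L. Its region (chr12:113344620-113345556) was called in old buffer replicate 2 with 14 summit reads, in purified new buffer replicate 1 with 11 and in unpurified new buffer replicate 2 with 17. No protocol called it in both libraries. The summits were spread over 637 bp, and the match to the composite element shown above lay 13 bp upstream of the start. The promoter of the neighbouring paralog OAS3 was called in 1 library, with 13 reads (chr12:113376049-113376329).

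IFI44L had its promoter called in 1 library with promoters of 1 kb on each side of a start, and in 4 with promoters of 2 kb, as many as MX1. Its promoter region (chr1:79085880-79086142) was called only in purified new buffer replicate 1, with 23 summit reads at a rank of 80.4% and a fold enrichment of 3.57. A region 2706 bp upstream (chr1:79083169-79083675) was called in 4 libraries, with 23, 17, 21 and 21 reads, and holds a response element core. An intronic region 20199 bp downstream (chr1:79106060-79106608) was called in all 6 libraries, with 24, 20, 15, 17, 19 and 15 reads, and was highest in the old buffer libraries.

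The promoter of IFI44, the neighbouring paralog of IFI44L, was called in all libraries with 36, 30, 36, 26, 34 and 41 reads (chr1:79115306-79115948). It holds the response element core shown above, 59 bp from its summit. In every library it had more reads than any region in IFI44L itself. The other 2 regions of the window, beyond the IFI44 start, were called in 1 library each with 17 and 19 reads.

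**Figure D3:**
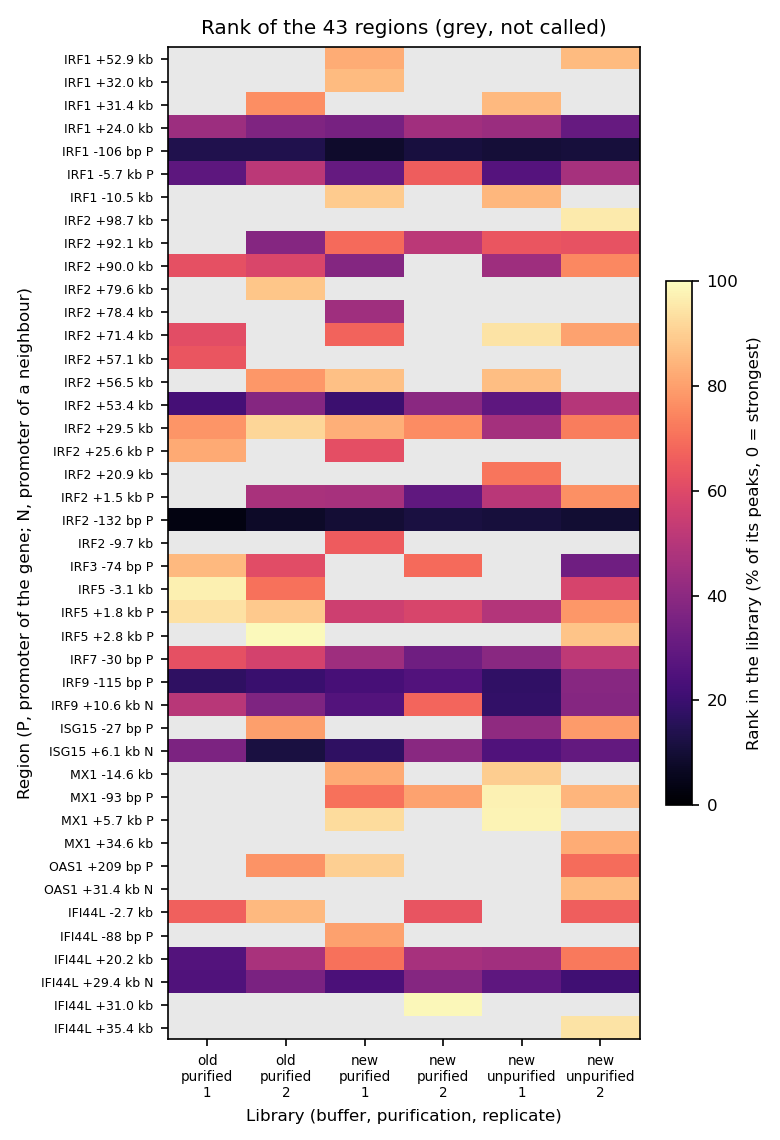
Rank of the 43 regions in the 6 libraries, as a percent of the peaks of the library (0 is the strongest peak), with grey where the library did not call the region. Rows are named by gene and distance of the summit from the canonical start, with P for promoters of the gene and N for promoters of a neighbour. The canonical promoters of IRF2, IRF1 and IRF9 are among the darkest rows, from 3.45% to 38.7%, and promoters of the stimulated genes are grey in at least 2 libraries.

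The comparison of protocols asks whether the new buffer, with or without purification, gives the same regions at these genes as the old one. The libraries called 20 and 25 of the 43 regions with the old buffer, 29 and 19 in the purified and 25 and 29 in the unpurified new buffer libraries. The lowest and the highest number both occurred with the purified new buffer, and the ranges met or overlapped for every pair. Purified new buffer libraries called 24.0 ± 7.07 regions (SD, n = 2) and old buffer libraries 22.5 ± 3.54, a difference of 1.5 (exact two-sided permutation p = 1). Libraries without purification called 27.0 ± 2.83, which was 4.5 more than the old buffer (exact p = 0.667; 2.0 to 7.5 with 1 library left out) and 3.0 more than the purified new buffer (exact p = 1). Where a call needed 50% of a region, the unpurified libraries called 8.0 more regions than the old buffer, with the smallest p the design allows. All 3 p-values adjusted by the Benjamini-Hochberg method were 1, and 2 libraries against 2 cannot give an exact p below 0.333.

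Few of the 43 regions were called in both libraries of a protocol and in neither of another. Between the purified new buffer and the old buffer, the MX1 promoter was called only with the new one, as were 1.83% of all regions called in either, and the distal IRF5 region only with the old one, as were 3.2%. Against the old buffer, the unpurified new one also had the MX1 promoter to itself (2.4% of all regions), and 0 regions were called only with the old one (2.82%). Between the new buffer without and with purification, the ISG15 promoter was called only without purification (2.7%) and 0 regions only with it (1.76%). The first 2 comparisons share the old buffer libraries, so the 2 calls of the MX1 promoter are not independent. The MX1 peak of unpurified replicate 1 had a −log10 q of 3.83, and at a minimum of 5 the promoter was called in 3 libraries.

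Summit reads were compared by limma on the log2 scale in the 20064 regions called in all libraries, 13 of which are at the 10 genes. With the purified new buffer against the old one, 9 regions (0.0449%) passed an adjusted p of 0.05, with the unpurified new buffer against the old one 4 (0.0199%), and between the new buffer protocols 0 (0%). None of the 13 was among them. At an unadjusted p below 0.05, limma called 1722 (8.58%), 1693 (8.44%) and 866 (4.32%) of all regions and 0 of the 13 in each comparison. The standard errors of the 13 log2 differences were 0.15 to 0.28. With 107 prior against 3 residual degrees of freedom, these errors and p-values rest mostly on the spread over all regions. They say little of the spread between libraries at a single region.

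Among the 13, the promoter regions of IRF5 and IRF7 had the highest values with the purified new buffer, and neither passed the test. The IRF5 region lay 1758 bp downstream of the canonical start. There the old buffer libraries had 23 and 24 reads and the purified new buffer libraries 34 and 29. The log2 difference was 0.45 ± 0.24 (SE, limma adjusted p = 0.605). The reads of the groups did not overlap. Without purification, with 35 and 30 reads, it was 0.39 (limma adjusted p = 0.692). The best-ranked summits lay 1721 and 1209 bp downstream in the old buffer libraries and 1760 and 1757 bp in the purified ones. In the unpurified libraries they lay at 1836 and 2220 bp, so the reads compared may come from different positions. At the IRF7 promoter the differences were 0.41 (limma adjusted p = 0.681) and 0.38 (limma adjusted p = 0.734).

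The intronic IFI44L region had the lowest values, at −0.43 (limma adjusted p = 0.681) with and −0.45 (limma adjusted p = 0.694) without purification against the old buffer. Between the new buffer protocols, the REC8 promoter beside IRF9 had the largest difference, 0.33 (limma adjusted p = 1). The main promoters of IRF2 and IRF1, with the most reads and the smallest errors, had differences between −0.11 and 0.16 in the 3 comparisons. The median of the 13 differences was 0.03, 0.11 and −0.01, against 0.03, 0.04 and 0.01 over all tested regions. Scaled by the lowest local background in place of the median region, the median over all regions between the new buffer protocols was −0.117.

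**Figure D4:**
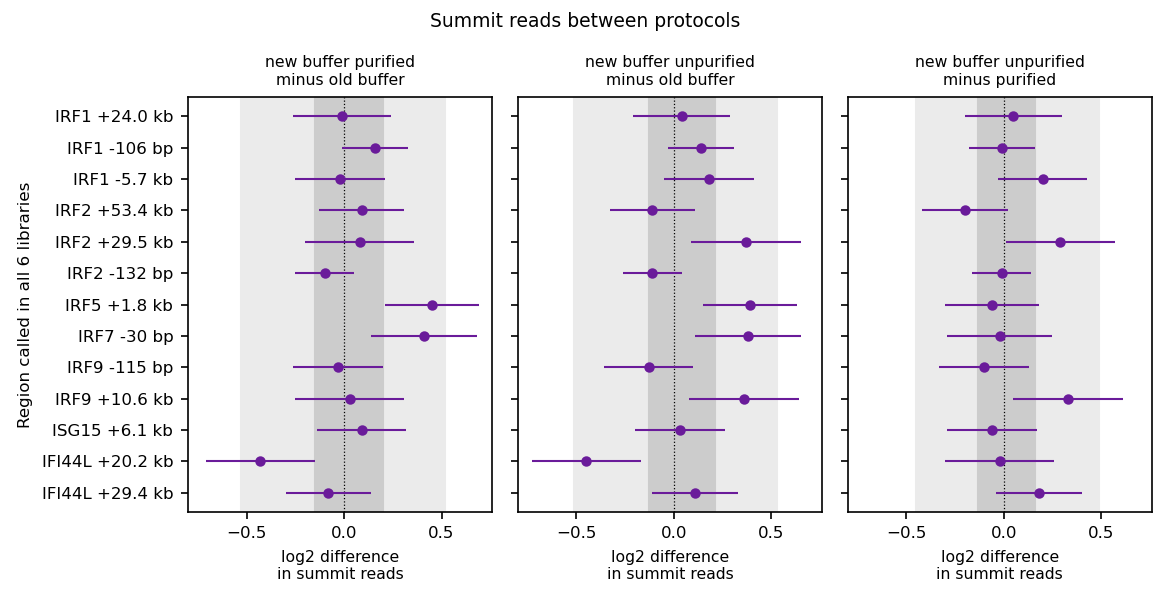
Log2 differences in summit reads with their standard errors (limma) for the 13 regions called in all 6 libraries, in the 3 comparisons of protocols. Dark and light bands span the quartiles and the central 95% of all 20064 tested regions. The 13 values run from −0.45 to 0.45, and 0 of them passed the test.

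The sequences of the promoters were compared over the 250 bases before and the 50 bases after the canonical start. The response element core was present in 3.32% of 19514 promoters, and in the windows of ISG15 and IFI44L among the 10 genes, which hold 2 matches each. The composite element was present in 2.58% of promoters, and in those of OAS1 and IFI44L. The STAT dimer site was present in 6.43%, and in those of IRF1, IRF2, IRF7, IRF9 and OAS1. The windows of IRF3, IRF5 and MX1 held no match to the 3 motifs, and the closer GAAA units of MX1 given above were not counted.

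Around the summits, in windows of 300 bases, the core was present in 9.21% of all regions and in 10 of the 43 windows at these genes (23.3%). The 10 include the promoters of the neighbours OAS3 and IFI44. At MX1, 5704 bp downstream, and at IFI44L, 35413 bp downstream, the core lay in the window but outside the called region. Over the whole set the core was present in 3.38% of promoter regions and in 10.9% of the others. Within the 43 regions themselves there were 17 matches to the core in 11 regions, 7 to the composite element in 5 and 12 to the STAT dimer site in 8. In the summit windows the composite element was present at 3 of the 43 (6.98%) against 5.42% of all regions, and the STAT dimer site at 8 (18.6%) against 8.98%. Matches of the first 2 motifs overlapped each other in the IRF2 promoter. These matches are letters in the reference sequence, and no binding was measured.

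CpG content differed widely between the 10 promoters. The ratio of observed to expected CpG in the canonical promoter had a median of 0.872 over genes called in all libraries, 0.81 over those called in some and 0.391 over those called in none. IRF1, IRF2 and IRF7 had ratios of 0.89, 0.827 and 0.829, and IRF3 and IRF5 had 0.811 and 0.689. The canonical IRF5 promoter lay outside every called region. Around the summit of the IRF5 region called in all libraries, the ratio was 0.103. MX1 and ISG15 had ratios of 0.91 and 0.752, close to those of the regulatory factors, while OAS1 had 0.0744 and IFI44L 0. IRF9 had the lowest ratio of the 5 genes with a promoter region in all libraries, at 0.265.

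**Figure D5:**
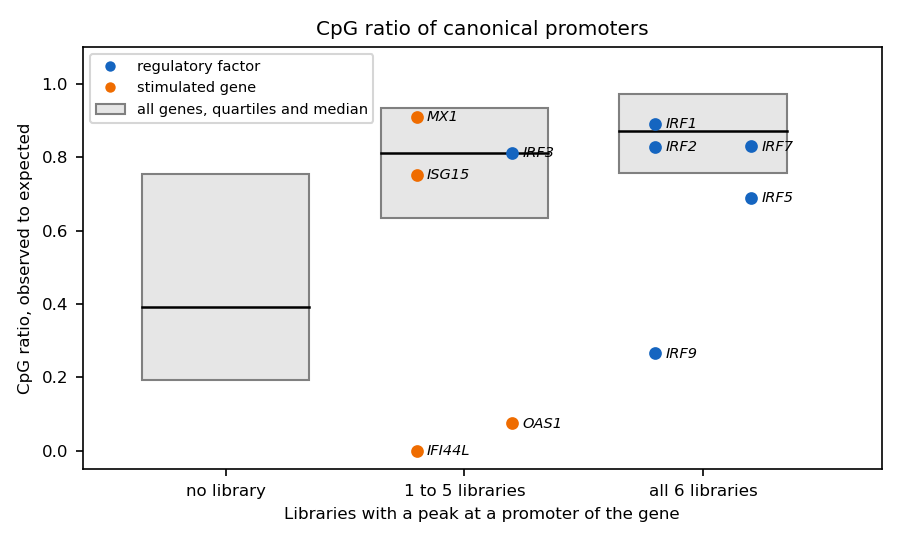
Ratio of observed to expected CpG in the canonical promoters of the 10 genes, by the number of libraries that called a promoter region of the gene. Boxes span the quartiles of all genes in the class with a line at the median. IRF9 and IRF5, at 0.265 and 0.689, lie below the box of their class, as do OAS1 and IFI44L at 0.0744 and 0. IRF5 is classed by its region 1758 bp downstream of the canonical start, and its canonical promoter lay outside every called region.

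The rest of the interferon pathway was read from lists of genes, with the share of all protein-coding genes in all libraries (45.5%) as the background. Of 12 receptors, kinases, STATs and their inhibitors, 7 had a promoter region in all libraries and 4 in some. The strongest were JAK1, STAT2 and JAK2, whose median ranks were 3%, 5.48% and 9.61% of the peaks. Only IFNLR1, the receptor chain of type III interferon, had none. The promoter of STAT2, which joins IRF9 in ISGF3, was called in every library with 41 to 60 summit reads.

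Of 13 sensors of nucleic acid and their adaptors and kinases, 6 had a promoter region in all libraries and 4 in some. MYD88, the adaptor of most Toll-like receptors, IFIH1, which encodes the RNA sensor MDA5, and TBK1, the kinase of IRF3, had the best median ranks at 1.41%, 1.62% and 15.5%. The MYD88 region is also a promoter of ACAA1 and the IFIH1 region one of GCA, and their reads cannot be divided. TLR7, TLR9 and TICAM1 had none. Of 2 other regulatory factors, IRF4, a factor of B cells and plasma cells, was called in all libraries at a median rank of 32.4%, and IRF8 in 3 libraries at 71%.

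Of 38 other interferon-stimulated genes, 17 had a promoter region in all libraries (44.7%), 11 in some and 10 in none. ISG20, PLSCR1 and HERC5 had the best median ranks at 11.4%, 12% and 14.6%. The 10 without a call were OASL, IFI27, IFI35, IFIT1, IFIT2, IFITM1, IFITM2, IFITM3, XAF1 and GBP2. Among paralogs of the members, MX2, OAS2 and IFI44 were called in all libraries, OAS3 in 1 and OASL in 0. RSAD2 and CMPK2 share 1 promoter region, as do PARP9 and DTX3L, so these do not count as separate observations. Of the 10 interferon genes, only IFNG had a promoter region, in all libraries with 21 to 29 reads, and the 9 type I and type III genes had none.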

How the data were processed

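Bulk ATAC-seq peak lists of 6 libraries were analysed, 2 for each of 3 protocols, with groups taken from the sample labels. The authors mapped reads to hg19 with Bowtie2 2.1.0, removed duplicates with Picard 1.79 and called peaks by MACS2 (q threshold 0.01, version not given in the sources used here). By the methods, samples of a condition were merged for peak calling, whereas 1 list per library was deposited. For each peak the authors deposited a score made from its −log10 q, a fold enrichment over the local background (a ratio), the −log10 p and the −log10 q. The deposited score was not used further.

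Peaks sharing at least 1 bp were merged into regions, and a library called a region with 1 bp in its peaks. Genes, starts and canonical transcripts came from GENCODE version 44 on hg19. Summit reads were solved from the fold enrichment and p value, within 0.001 in −log10 p, and ranks follow −log10 q. Depth is known only relative to the lowest background, counts cover counting error only, and the precision of a value is set by its summit reads. Numbers of regions were compared by exact two-sided permutation tests with Benjamini-Hochberg adjustment. Log2 summit reads, centred on the median of each library, were fitted across all regions called in every library by limma 3.58.1 (trended prior variance, 3 residual and 107 prior degrees of freedom, median replicate SD of 0.202) in R 4.3.3. Other steps used pandas 2.3.3, SciPy 1.17.1, bedtools 2.31.1 and NumPy 2.4.6 under Python 3.11.15. Merging and calling of regions were checked against bedtools on these peaks, and the summit solution and the limma fit on simulated reads. Same-numbered libraries did not deviate together (correlations of −0.00407, −0.00262 and 0.0146 over 20064 regions), so the numbers were not used as pairs in the main fit. These correlations cannot exclude a shared effect that is small beside the counting error.

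The genes, lists and motifs were chosen with earlier results of these data known, and 3 genes of the lists are not reported here. By rule, all promoter regions of the 10 genes were named, the distal region with the best ranks, those not in all libraries (by range where more than 3), and from each list the genes without a call and the 3 best ranked. MX2, OAS2, OAS3, IFI44, RSAD2, CMPK2, PARP9 and DTX3L, and the summit reads of list genes, were added after their values were seen. The alternatives were a −log10 q of at least 5, 30136 peaks per library, other windows, promoters, overlaps and scalings, each library left out in turn and replicate blocks.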

Additional observations from a re-analysis of the deposited data

How the results depend on the processing

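The number of regions at the 10 genes (43) and of those called in all libraries (13) rose to 78 and 36 with 50 kb on each side of the gene bodies. Where a call needed 50% of a region, 5 regions and 2 genes with a promoter were left in all libraries, in place of 13 and 5. With equal numbers of peaks or a −log10 q of at least 5 the MX1 promoter was called in 3 libraries and that of OAS1 in 2, as was OAS1 where a call needed 50%, and with equal numbers that of IRF3 in 3. The IFI44L promoter was called in 0 libraries with equal numbers of peaks or without replicate 1 of the purified new buffer, and in 4 with promoters of 2 kb. Differences between protocols in regions per library turned with single libraries: the purified new buffer was at −1.0 against the old one without old buffer replicate 1, at −3.5 without its own replicate 1 and at 6.5 without its replicate 2, and the unpurified new buffer was at −1.5 against the purified one without replicate 2 of the latter and at 8.0 without its replicate 1. The unpurified new buffer stayed 2.0 to 7.5 above the old one with 1 library left out, and 8.0 where a call needed 50% (exact p = 0.333). With replicate numbers as a block, these differences kept their 1.5, 4.5 and 3.0 regions (exact p of 1, 0.5 and 1), and limma called 10, 6 and 0 regions, which changed no call at the 10 genes. Leaving out 1 library each, limma called 0 to 11, 0 to 4 and 0 to 4 regions in the 3 comparisons, with 0 of the 10 genes' regions in each. In the first of these, old buffer replicate 1, old buffer replicate 2 and replicate 1 of the unpurified new buffer left 0, 1 and 3, and in the second each old buffer and each unpurified library left 0 or 1. In the third, replicate 1 of the purified new buffer gave 4. Scaling by the lowest background gave 4 regions in the first comparison, and a prior variance without trend gave 0 in the first and in the second. Without the trend, 1 of the 13 regions had an unadjusted limma p below 0.05 in the first comparison, against 0 in the main fit. The log2 difference at the REC8 promoter between the new buffer protocols was −0.01 without replicate 1 of the unpurified and 0.60 without replicate 1 of the purified one. The causes were not tested. Of the other values, 83 counts and differences and 147 values of single genes or regions kept their direction and side of the threshold or, for counts, stayed within 1.5 times, which includes the lost promoter calls given above and in the report. With 1 library left out, a promoter called in at least 3 could hardly leave that range, so these values say little of stability. A replicate block cannot change a mean difference in regions per library. The 11 to 23 summit reads of the stimulated genes' promoters limit what can be said of them, and no group is large enough to test for outliers.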
